A study of Mus musculus with 11 samples.

Results

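The carboxylesterases described here are 10 liver genes, Ces1b, Ces1c, Ces1d, Ces1e, Ces1f, Ces1g, Ces2a, Ces2c, Ces2e and Ces3a, taken by gene name from a table of 43346 genes. All 10 were found and all 10 passed the filter on low counts. Carboxylesterases are serine hydrolases that cleave ester bonds. In hepatocytes most of them sit in the lumen of the endoplasmic reticulum, where they hydrolyse drugs, prodrugs and other foreign esters, and several also act on triacylglycerol and cholesteryl ester. In the liver the family is known for activating and clearing ester drugs and for mobilising stored lipid for lipoprotein secretion.

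RNA was sequenced from livers of FVB/NJ mice with hepatocellular carcinoma driven by expression of the receptor tyrosine kinase MET and of β-catenin, the effector of Wnt signalling. The mice received an anti-PD-1 antibody, which blocks an inhibitory T cell receptor, and were labelled by their response to it. The comparison is between 6 responder and 4 non-responder libraries, and 1 more library has the response label of no treatment although its treatment label names the antibody. The disease, the strain and the 2 driver genes are shared by all groups, including the no treatment library, and tumour-free liver was not analysed here. The labels read here do not say how much of each liver was tumour, or whether each library is a mouse of its own, so the p-values reflect only how far these libraries vary. In bulk liver, fewer cells of a type and less RNA per cell cannot be told apart.

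Gene counts summed to between 17876515 and 40565708 in responder libraries, to between 25542066 and 39941835 in non-responder libraries and to 49884800 in the no treatment library. In non-responder replicate 1 the coverage leaned to the 3′ end of transcripts. A log2 index of later against earlier exons, taken as a median across 5918 genes and centred over libraries, was 1.18 there. In the other treated libraries the index was between -0.06 and 0.15. All 18 hepatocyte markers were measured, and their mean log2 CPM (read counts scaled to library size by TMM) was between 11.43 and 11.92 in responders, between 11.58 and 11.76 in non-responders and at 11.84 in the no treatment library. By edgeR's quasi-likelihood test 2 of them were higher in responders (Cps1 and Tat), 3 were lower (Trf, Apoa1 and Ahsg) and 13 did not pass. Of all 17610 genes tested, 9.93% passed in either direction.

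The catalytic serine lies in a short stretch that all 10 genes share, shown here to place the members side by side. Each line gives 51 coding bases, 5′ to 3′, from the GENCODE release M21 transcript of the gene on chromosome 8, with the serine codon in capitals. The stretch was found as a GG, a TC after 4 more bases and a GG after another 4, searched on the coding strand of the longest reading frame.
Ces1b: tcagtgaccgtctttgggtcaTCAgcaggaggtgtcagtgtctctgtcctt
Ces1c: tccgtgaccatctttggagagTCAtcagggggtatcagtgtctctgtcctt
Ces1d: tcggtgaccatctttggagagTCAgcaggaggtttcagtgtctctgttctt
Ces1e: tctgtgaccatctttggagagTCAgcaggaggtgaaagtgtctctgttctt
Ces1f: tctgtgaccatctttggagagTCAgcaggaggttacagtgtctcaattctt
Ces1g: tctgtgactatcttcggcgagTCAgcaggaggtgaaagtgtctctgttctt
Ces2a: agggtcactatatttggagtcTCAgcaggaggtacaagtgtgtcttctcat
Ces2c: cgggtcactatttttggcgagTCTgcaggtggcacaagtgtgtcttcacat
Ces2e: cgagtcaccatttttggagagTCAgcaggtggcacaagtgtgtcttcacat
Ces3a: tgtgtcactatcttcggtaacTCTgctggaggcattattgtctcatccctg
The serine codon was TCA in 8 members and TCT in Ces2c and Ces3a. Over the whole coding sequence, Ces1b and Ces1c were the closest pair of members at 91.2% identity. Ces2c and Ces2e had 84.0%, Ces2a and Ces2e 83.3%, and Ces1d and Ces2e, the most distant pair, 62.0%.

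Such likeness bears on the counts, since a read that fits 2 genes may be given to either. Of all runs of 50 bases in the Ces2c transcript, 42.2% also occurred in a transcript of another gene, mostly Ces2d-ps (38.2%). For Ces3a the share was 30.9%, all of it with Ces3b. It was 22.2% for Ces2a, mostly with Gm7208 (20.9%). For Ces1c it was 17.0% and for Ces1b 11.6%, and this last pair shared most with each other. The values of these 5 genes are therefore uncertain, and these shares do not give the size of the error in their counts. The remaining 5 members had between 1.28% (Ces1d) and 3.36% (Ces2e). The transcripts of Ces1e, Ces1f and Ces1g are thus almost wholly sequence of their own at this run length. How the counting treated such reads, and whether it used strand, is not given in the sources used here. Ces3a is the one member overlapped by another annotated gene, Gm45724 on the opposite strand.

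In livers of responders 4 carboxylesterases were higher than in livers of non-responders: Ces1e, Ces1f, Ces1g and Ces2a, with log2 fold changes between 1.47 and 2.57. No member was lower past the threshold of an adjusted p of 0.05, and 6 members did not pass in either direction. Ces2c and Ces2e had log2 fold changes below 0, and the other 8 members above 0. Among all 17610 genes tested, 4.11% passed as higher and 5.82% as lower, 9.93% in all. The median log2 fold change was 0.85 over the members and -0.02 over all genes tested. At an unadjusted p under 0.05, 7 members passed in edgeR, 2 of them with a negative sign, where 4803 of all 17610 genes tested did so. DESeq2 called 2 members lower where limma-voom called 0, against 1699 and 1105 lower over all genes. These counts depend on single libraries, as do the calls over all genes, 1748 in the main fit. Without responder replicates 1, 2 or 5 in turn 1 member was higher, where 425, 324 and 309 genes were called in all. Without responder replicate 3 or non-responder replicate 1 the count was 2, where 996 and 1712 genes were called. Without non-responder replicate 2 it was 0, where 79 genes were called. Without non-responder replicate 3, where Ces1d also passed, it was 5, and 1994 genes were called. With a covariate for the number that sample titles carry, edgeR called 0 members and 1 gene in all. Log2 fold changes of the 4 called members were then between 1.501 and 2.58.

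**Figure D1:**
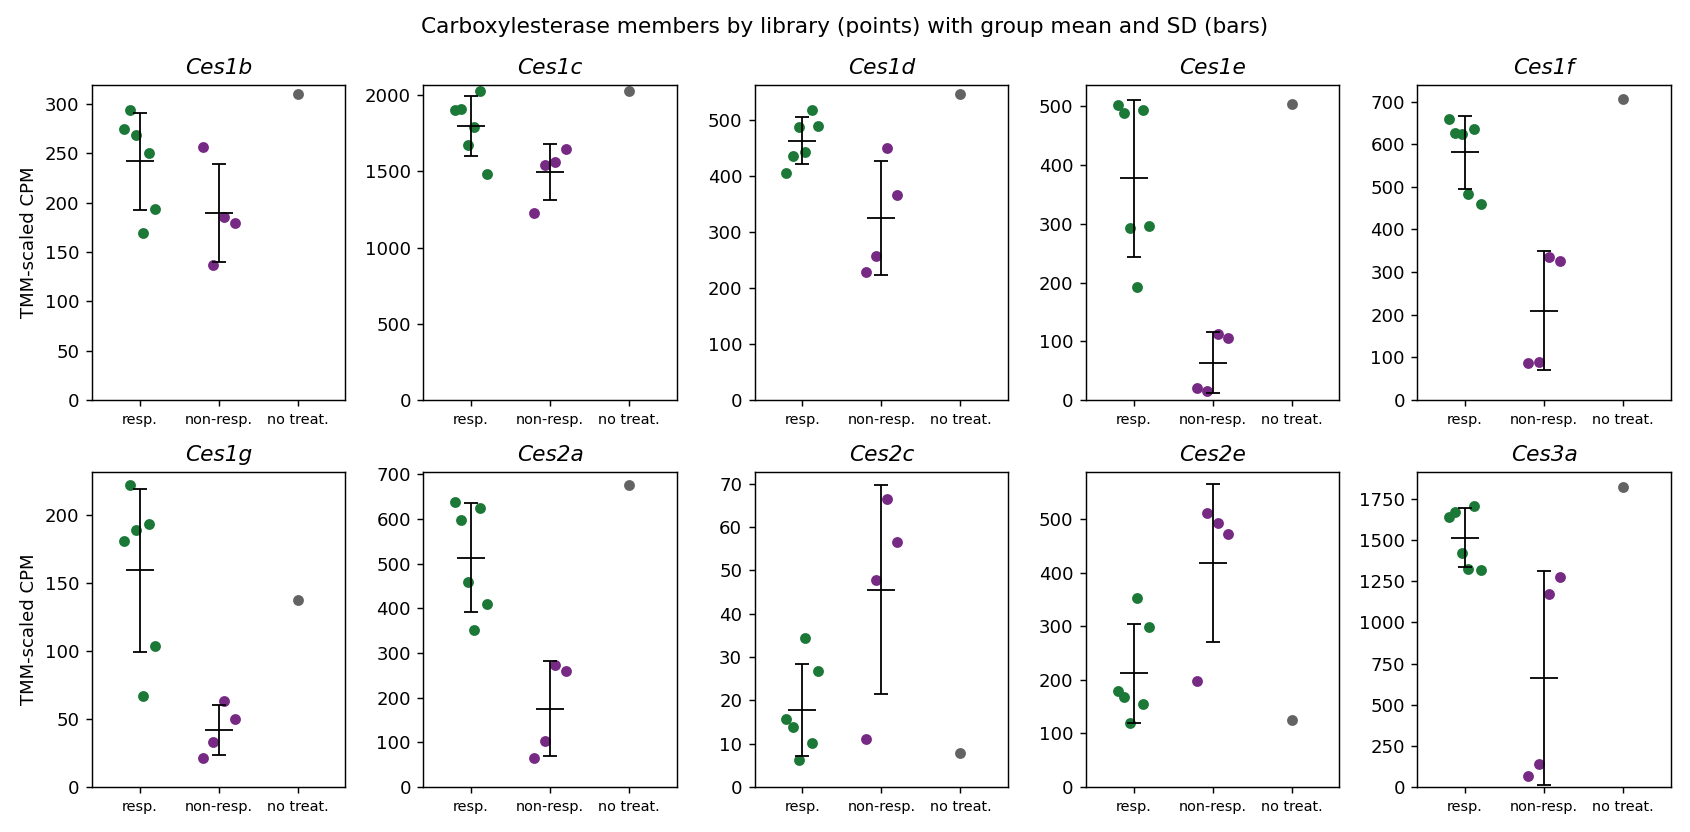
TMM-scaled CPM of each of the 10 carboxylesterases in the 6 responder, 4 non-responder and 1 no treatment libraries (points), with the group mean and SD as bars on axes that start at 0. Ces1e, Ces1f, Ces1g, Ces2a and Ces3a have every responder library above every non-responder library, and Ces2c and Ces2e have higher means in non-responders.

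Ces1e (ENSMUSG00000061959, mm10 chromosome 8, 93201218 to 93229619) encodes egasyn, which holds the lysosomal enzyme β-glucuronidase in the endoplasmic reticulum of mouse liver. It had between 192 and 502 CPM, with a median of 392, in responders, and 21.0, 15.8, 112 and 105 CPM in non-responder replicates 1 to 4. No responder library came down to the highest non-responder library, and non-responder replicates 1 and 2 were the lowest of all 11. Ces1e averaged 377 ± 134 CPM in responders (SD, n = 6) and 63.5 ± 52.1 in non-responders (SD, n = 4), with a log2 fold change of 2.57 ± 0.60 (SE; adjusted p by edgeR = 0.0286). This was the largest change among the members. The call was lost without responder replicate 1, 2 or 5 or non-responder replicate 1 or 2, where the adjusted p lay between 0.0504 and 0.0672 and the log2 fold change between 2.25 and 2.49.

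β-Glucuronidase itself (Gusb) was lower in responders, at 27.3 ± 3.86 CPM (SD, n = 6) against 38.5 ± 6.99 in non-responders (SD, n = 4), with a log2 fold change of -0.50 ± 0.14 (SE; adjusted p by edgeR = 0.0483). Its groups overlapped, and the no treatment library, at 22.4 CPM, was below every treated library. Egasyn and its partner thus had opposite signs. Of the 3 KDEL receptor genes, whose products return proteins to the endoplasmic reticulum, Kdelr3 was lower in responders. It had 0.486 ± 0.098 CPM against 2.30 ± 1.70 in non-responders (SD, n = 6 and 4), with a log2 fold change of -2.22 ± 0.47 (SE, adjusted p by edgeR = 0.0212). Kdelr3 was near the floor, with 8 to 24 reads per responder library. Non-responder replicates 1 and 2 had 3.32 and 4.135 CPM, while replicate 4, at 0.599, was just above the highest responder, at 0.596. Of Gusb and the 3 receptor genes, edgeR called 2 and limma-voom 1. Kdelr1 (-0.02 ± 0.11) and Kdelr2 (-0.19 ± 0.14) did not pass.

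Ces1f (ENSMUSG00000031725, chromosome 8, 93256236 to 93279747) and Ces1g (ENSMUSG00000057074, 93302369 to 93337308) follow Ces1e on the chromosome. Ces1f is a liver esterase with triacylglycerol hydrolase activity in mice, and Ces1g a lipid hydrolase whose loss in mice raises liver and blood lipids. Ces1f had between 461 and 658 CPM, with a median of 624.9, in responders, and 88.0, 89.3, 336 and 327 CPM in non-responders. The non-responder libraries fell into a low pair, replicates 1 and 2, and a pair nearer to the responders, and no value overlapped. The means were 581 ± 85.7 CPM in responders (SD, n = 6) and 210.1 ± 140.2 in non-responders (SD, n = 4), with a log2 fold change of 1.47 ± 0.40 (SE; adjusted p by edgeR = 0.0399). Leaving out responder replicate 1, 2, 3 or 5 or non-responder replicate 1 or 2 ended that call, with adjusted p between 0.0629 and 0.1.

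Ces1g had between 66.7 and 222 CPM, with a median of 185, in responders, and 21.4, 32.9, 63.3 and 49.8 CPM in non-responders. Responder replicate 4, the shallowest library, was only just above non-responder replicate 3, and responder replicate 6, at 104 CPM, was the next lowest responder. Ces1g averaged 159 ± 60.3 CPM in responders (SD, n = 6) and 41.9 ± 18.5 in non-responders (SD, n = 4), with a log2 fold change of 1.93 ± 0.38 (SE; adjusted p by edgeR = 0.0192). Its call held in 9 of 10 fits that each left out 1 library, the most of any member, and was lost without non-responder replicate 2 (adjusted p = 0.0704, log2 fold change 1.84).

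Ces1d (ENSMUSG00000056973, 93166068 to 93197838), the triacylglycerol hydrolase that feeds very low density lipoprotein assembly in mouse liver, lies next to Ces1e and did not pass. It had between 406 and 518 CPM in responders (median 465), and 228, 257, 449 and 366 CPM in non-responders. Only non-responder replicate 3 reached into the narrow responder range. The log2 fold change was 0.51 ± 0.19 (SE; adjusted p by edgeR = 0.106), and without non-responder replicate 3 it was 0.71 (adjusted p = 0.0313, within a range of 0.0313 to 0.252 over the 10 libraries left out). Per kilobase of listed gene length, the ratio of Ces1e to Ces1d was between 0.469 and 1.34 in responders and 0.100, 0.067, 0.270 and 0.310 in non-responders. These neighbours, which have 80.4% coding identity, thus stood at like levels in several responders and far apart in every non-responder. The pair was chosen after its values were seen.

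Ces1c (ENSMUSG00000057400, 93099015 to 93131283), which encodes a secreted esterase of mouse plasma, and its near copy Ces1b (ENSMUSG00000078964, 93056727 to 93080017) had the smallest log2 fold changes. Ces1c had between 1484 and 2027 CPM in responders (median 1845), and 1229, 1540.0, 1564 and 1646 CPM in non-responders. Its groups overlapped, and its highest library was 1.37 times its lowest in responders and 1.34 times in non-responders. The log2 fold change was 0.27 ± 0.15 (SE; adjusted p by edgeR = 0.281). Ces1b had between 169 and 293 CPM in responders, against 256, 137, 186 and 179.9 CPM in non-responders. The log2 fold change of Ces1b was 0.35 ± 0.20 (SE; adjusted p by edgeR = 0.293). Non-responder replicate 1 was here the highest non-responder, unlike at any other CES1-type member.

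Ces2a (ENSMUSG00000055730, 104734003 to 104741634) opens the second cluster on chromosome 8. Its enzyme is of the CES2 type, which in humans prefers esters with a small acyl and a large alcohol group. Ces2a had between 352 and 639 CPM, with a median of 529, in responders, and 65.4, 103, 272 and 260.4 CPM in non-responders. The groups did not overlap, and the same low pair of non-responder libraries stood out as for Ces1f. Ces2a averaged 514 ± 123 CPM in responders (SD, n = 6) and 175 ± 106 in non-responders (SD, n = 4), with a log2 fold change of 1.55 ± 0.39 (SE; adjusted p by edgeR = 0.0322). The call was lost without responder replicate 1, 2, 3 or 5 or non-responder replicate 2, with adjusted p between 0.0532 and 0.0993.

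Its relatives Ces2c (ENSMUSG00000061825, 104847068 to 104854483), an acylglycerol hydrolase of mouse liver and intestine, and Ces2e (ENSMUSG00000031886, 104926260 to 104934672) had the opposite sign and did not pass. Ces2e had between 119 and 353 CPM in responders (median 173), and 198, 512, 492.96 and 472 CPM in non-responders. Non-responder replicates 2 to 4 were above every responder, while replicate 1 lay inside the responder range. The log2 fold change of Ces2e was -0.98 ± 0.33 (SE; adjusted p by edgeR = 0.0823). Without non-responder replicate 1 it passed (-1.22, adjusted p = 0.04), and the adjusted p ran from 0.04 to 0.209 over the libraries left out.

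Ces2c, the scarcest member in responders, had between 6.15 and 34.3 CPM there (median 14.7), and 11.1, 47.8, 66.4 and 56.5 CPM in non-responders. As at Ces2e, non-responder replicate 1 was the exception and responder replicates 4 and 6 were the highest responders. The log2 fold change was -1.36 ± 0.52 (SE; adjusted p by edgeR = 0.122). DESeq2 called both genes lower, Ces2e at an adjusted p of 0.0323 and Ces2c at 0.0402. Responder replicates 4 and 6 were also the lowest responders for Ces1b, Ces1f, Ces1g, Ces2a and Ces3a, and had the lowest hepatocyte marker means among responders, 11.43 and 11.59, whose part in these values was not tested. The pseudogene Ces2d-ps, which lies between them and shares sequence with Ces2c, had -1.11 ± 0.37 (edgeR adjusted p = 0.0738).

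Set against each other per kilobase, Ces2a stood above Ces2e in every responder, with a ratio between 1.14 and 4.63 and a median of 4.08. The ratio was 0.378, 0.230, 0.632 and 0.631 in non-responder replicates 1 to 4 and 6.21 in the no treatment library. Every responder was above 1 and every non-responder below it, also by transcript length (1.37 to 5.58 in responders and 0.276 to 0.7604 in non-responders), although Ces2e alone overlapped between the groups. The 2 genes have 83.3% coding identity and were set together after their values were seen.

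**Figure D2:**
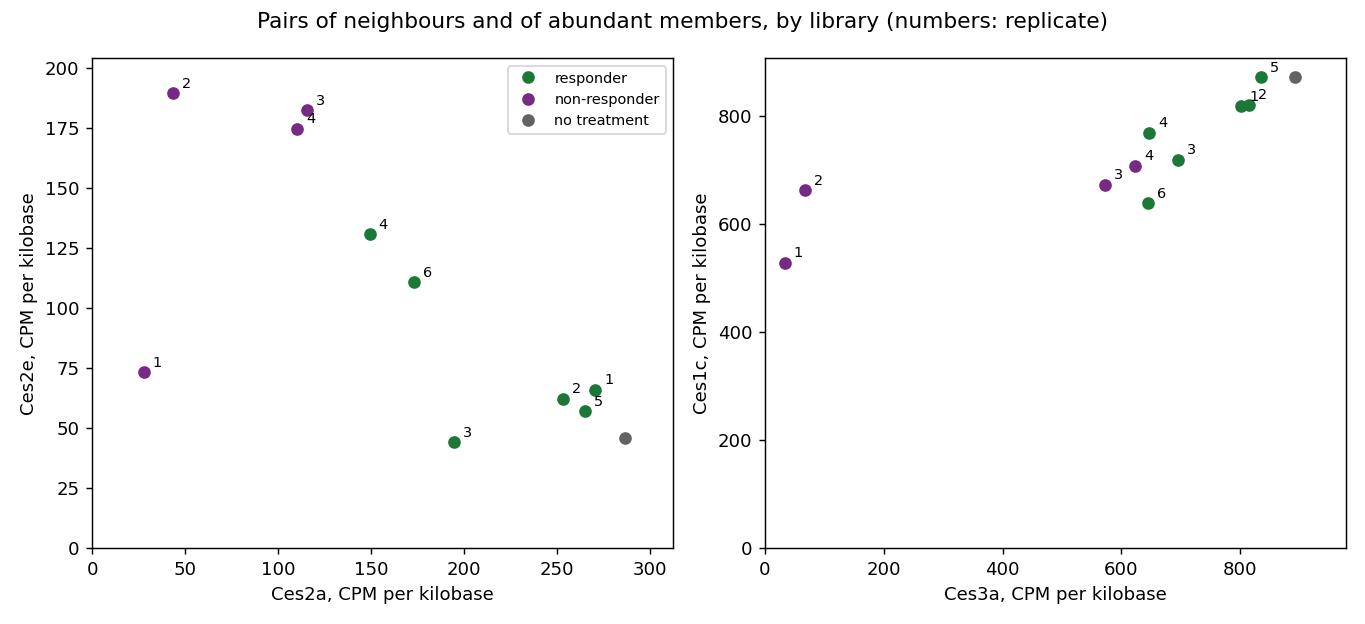
Levels in CPM per kilobase by library, with Ces2a (x) against Ces2e (y) on the left and Ces3a (x) against Ces1c (y) on the right; numbers are replicates of the 6 responder and 4 non-responder libraries, and the grey point is the no treatment library. Responders lie toward high Ces2a and low Ces2e, and non-responder replicates 1 and 2 stand alone at low Ces3a with Ces1c near the other libraries.

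Ces3a (ENSMUSG00000069922, 105048599 to 105058414), a liver esterase, was the member that varied most among non-responders. It had between 1321 and 1709 CPM in responders (median 1533), against 68.0, 137, 1172 and 1277 CPM in non-responders. The groups did not overlap, but non-responder replicates 3 and 4 were just below the lowest responder while replicates 1 and 2 were far below it. The highest library was 1.29 times the lowest in responders and 18.8 times in non-responders. With that spread the log2 fold change was 1.19 ± 0.68 (SE; adjusted p by edgeR = 0.290). Limma-voom gave 2.19 (adjusted p = 0.0871), and the adjusted p by edgeR was between 0.17 and 0.46 over the libraries left out.

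Of the low pair, replicate 1 had the 3′ coverage index of 1.18 and replicate 2 one of 0.00. The log2 fold change was 0.81 without replicate 1 and 0.86 without replicate 2. The neighbour and close relative Ces3b followed Ces3a, with between 310.1 and 662 CPM in responders and 17.5, 36.6, 209 and 227 CPM in non-responders. Its log2 fold change was 1.82 ± 0.65 (SE; adjusted p by edgeR = 0.0979). Per kilobase, Ces3a to Ces1c was between 0.841 and 1.01 in responders and 0.063, 0.101, 0.850 and 0.879 in non-responders, and by transcript length between 0.662 and 0.795 in responders and between 0.0495 and 0.693 in non-responders. Among members, 5 had every responder above every non-responder and 0 the reverse, where 5.6% and 5.66% of all genes tested did so.

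Levels of different genes were compared per kilobase of the gene length listed in the file, and their order depends on that length. On this scale Ces1c and Ces3a led in responders at 774 ± 84.0 and 739.7 ± 87.1 CPM per kilobase (SD, n = 6). Ces2a (218 ± 52.0), Ces1d (195 ± 17.6), Ces1f (177 ± 26.1), Ces1e (172 ± 61.1), Ces1b (123 ± 25.2), Ces2e (78.6 ± 34.1), Ces1g (66.8 ± 25.2) and Ces2c (9.03 ± 5.41) followed. In that order the ranges of neighbours overlapped except between Ces3a and Ces2a and between Ces1g and Ces2c. The listed length of Ces1f is 3285 bases, where its GENCODE transcript has 1926. Per kilobase of transcript, a choice made after seeing the data, Ces1f averaged 301.8 ± 44.5 in responders and stood in place 3, next to Ces2a (262 ± 62.6), while Ces1c (983 ± 107) and Ces3a (741 ± 87.3) still led.

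In non-responders Ces1c led at 644 ± 78.7 CPM per kilobase, followed by Ces3a (324 ± 317), Ces2e (155 ± 54.8), Ces1d (137 ± 42.9), Ces1b (96.6 ± 25.2), Ces2a (74.3 ± 45.1), Ces1f (64.0 ± 42.7), Ces1e (28.99 ± 23.8), Ces2c (23.1 ± 12.2) and Ces1g (17.5 ± 7.73; SD, n = 4 each). Every pair of neighbours in that order overlapped. Ces2e stood in place 8 in responders and in place 3 in non-responders, or in place 8 and place 4 by transcript length, where Ces1f averaged 109 ± 72.8 in non-responders. Summed over the 10 members, the level was between 5082 and 6617 CPM in responders, between 2187 and 4739 CPM in non-responders and 6866 CPM in the no treatment library. Summed hepatocyte marker CPM ran the other way, from 117650 to 128400 in responders and from 147670 to 193290 in non-responders. The largest part of that sum was Alb, with means of 56689 CPM in responders and 85756 in non-responders (adjusted p by edgeR = 0.0524). Marker by marker the signs were mixed, with 10 of 18 log2 fold changes above 0 and a median of 0.03. The part of the sum in the result was not tested. With the mean log2 CPM of those markers as a covariate, Ces1e (2.36, adjusted p = 0.0484) and Ces1g (1.55, 0.0308) passed while Ces1f (1.46, 0.0684) and Ces2a (1.47, 0.0631) did not. In that edgeR fit 1362 genes were called in all.

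The no treatment library, 1 library without a test, was above all 10 treated libraries for 6 members and inside their range for 4. Ces3a had 1827 CPM there, Ces1f 707, Ces2a 676, Ces1d 546, Ces1e 503 and Ces1b 311, each above the highest treated library, by a narrow margin for Ces1e. Ces1c (2027 CPM), Ces1g (138), Ces2e (125) and Ces2c (7.75) lay within the range of responders. For Ces1e, Ces1f, Ces1g, Ces2a and Ces3a, whose groups did not overlap, the library was thus on the side of the responders. It was also above every non-responder for Ces1b, Ces1c and Ces1d, and below every non-responder for Ces2c and Ces2e.

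**Figure D3:**
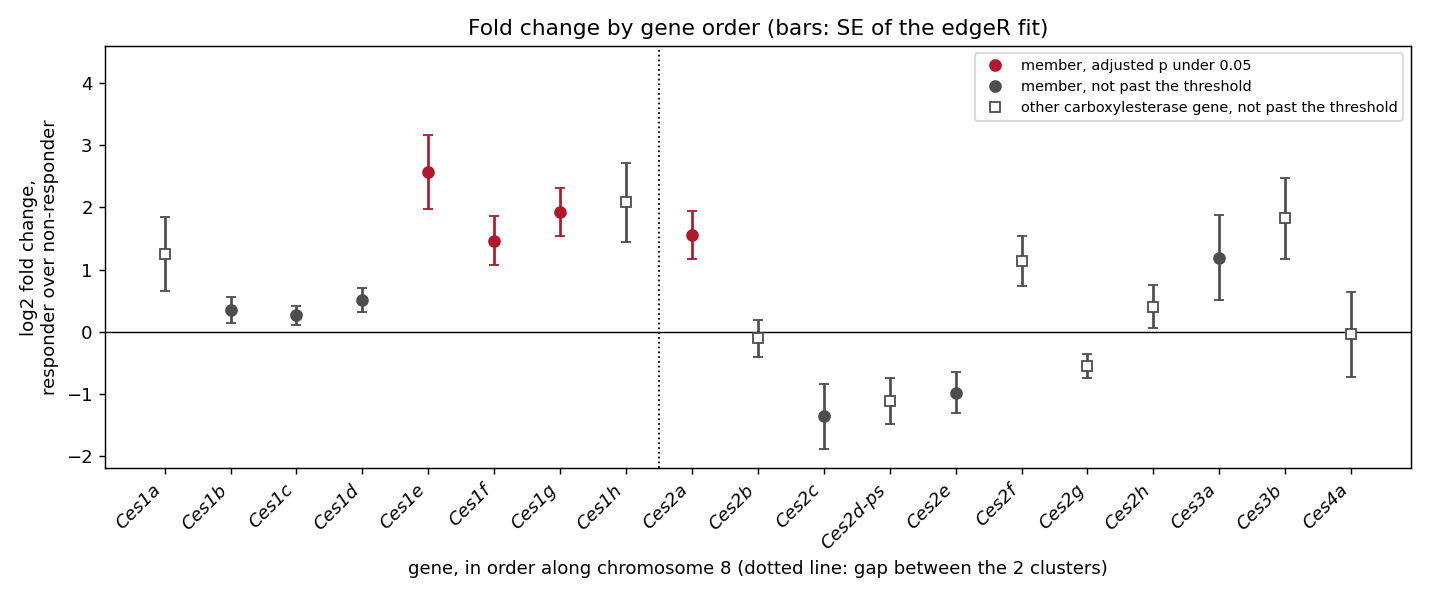
Log2 fold change, responder over non-responder (points, with SE bars of the edgeR fit), of 19 carboxylesterase genes in order along chromosome 8, with a dotted line between the 2 clusters. The 4 members past the threshold (red) are Ces1e, Ces1f and Ces1g, which follow each other, and Ces2a, and the values below 0 lie between Ces2b and Ces4a.

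The 10 members lie in 2 clusters on chromosome 8 among other genes of the family. Ces1e, Ces1f and Ces1g are neighbours, and Ces1h, the next gene, had a log2 fold change of 2.08 ± 0.64 (SE; adjusted p by edgeR = 0.0597) at no more than 3.51 CPM in any responder. Within the second cluster the signs were mixed. Ces2a was higher in responders, Ces2b (-0.11 ± 0.30), Ces2c, Ces2d-ps, Ces2e and Ces2g (-0.55 ± 0.20) were below 0, Ces2f had 1.14 ± 0.41 and Ces2h 0.40 ± 0.34 (log2 fold change and SE). Ces1a had 1.24 ± 0.59 and Ces4a -0.04 ± 0.68. Of the 9 family genes outside the 10 that could be tested, edgeR called 0, with 5 at an unadjusted p under 0.05, while DESeq2 and limma-voom called 3 each. Over all genes, 4803 of 17610 had such a p in edgeR, and DESeq2 called 3046 and limma-voom 2006. Ces5a had 4 reads in all over the treated libraries and was not tested.

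Exon counts were compared next, to see whether a change ran along the whole transcript. For Ces1e the log2 ratio of mean CPM, responder over non-responder, was between 2.42 and 2.69 over 14 exons. Ces1f had 1.26 to 1.63 over 14 exons and Ces2a 1.28 to 1.66 over 12. In these genes all exons had ratios above 0, and the lowest of Ces1f and of Ces2a was that of the last exon. Without non-responder replicate 1, whose reads lay toward the 3′ end, the medians were 2.30 for Ces1e, 1.21 for Ces1f and 1.29 for Ces2a. The exons then spanned 1.11 to 1.28 in Ces1f and 1.23 to 1.325 in Ces2a. In Ces1g, exon 9 stood apart at 1.21, where the other 13 exons had 1.85 to 2.26. It stood at 16.6 CPM in responders and at 7.20 CPM in non-responders, and was still the lowest without non-responder replicate 1, at 0.87.

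The genes below 0 had ratios below 0 at every exon, from -1.66 to -1.06 over 12 exons of Ces2c and from -1.31 to -0.87 over 13 exons of Ces2e. In responders, exon 2 of Ces2c had 6.50 CPM, while its exons 8 to 12 had between 0.28 and 0.62 CPM. The ratios of those later exons thus rest on low levels. Ces3a had 1.03 to 1.30 over 13 exons. Ces1d had 0.27 to 0.65 over 14, lowest at exon 14, and 0.30 to 0.41 without non-responder replicate 1. In Ces1b and Ces1c the ratio declined along the gene, to -0.14 at exon 14 of Ces1b and to -0.22 at its lowest exon in Ces1c. Without non-responder replicate 1 all exons of both genes were above 0, from 0.30 in Ces1b and 0.06 in Ces1c.

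**Figure D4:**
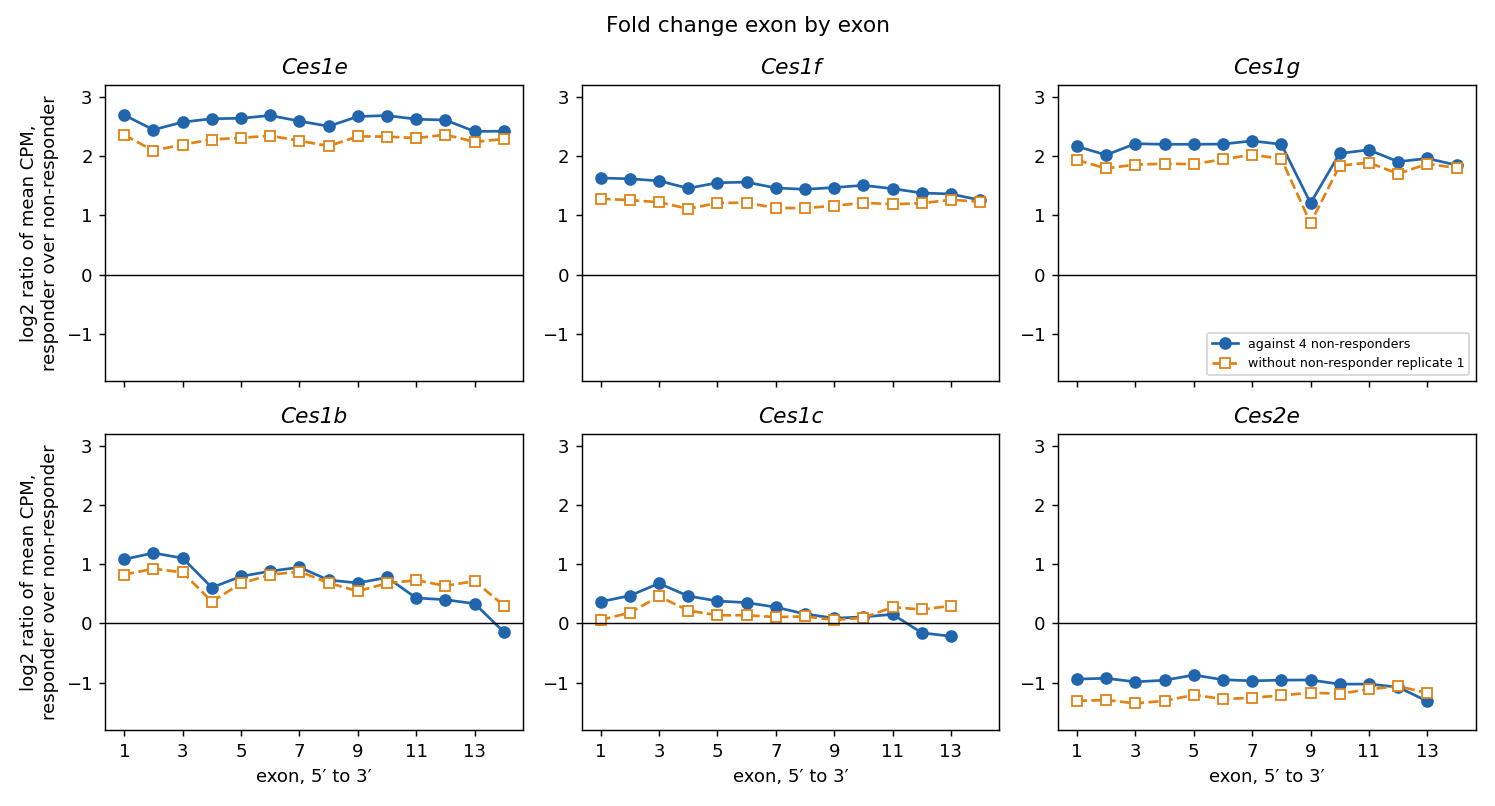
Log2 ratio of mean CPM, responder over non-responder, for each exon from 5′ to 3′ of 6 members, against all 4 non-responder libraries (filled circles) and without non-responder replicate 1 (open squares). Ces1e has ratios of like size along the transcript, and Ces1f is lowest at exon 14 against all 4 non-responders. Exon 9 of Ces1g dips to 1.21, and the last exons of Ces1b and Ces1c are below 0 in the first comparison and above it in the second.

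Windows of 250 bases upstream of the start site were available from RefSeq (GRCm38.p6) for 7 members, and Ces1d, Ces1f and Ces3a had no entry in the table. They are printed for Ces1e and Ces2a, which were higher in responders, for Ces2e, the relative of Ces2a with the opposite sign, and for Ces1c, which varied little. Capitals mark matches to TTGCNNAA, the C/EBP motif, on either strand.
Ces1c, chr8:93131284-93131533, minus strand: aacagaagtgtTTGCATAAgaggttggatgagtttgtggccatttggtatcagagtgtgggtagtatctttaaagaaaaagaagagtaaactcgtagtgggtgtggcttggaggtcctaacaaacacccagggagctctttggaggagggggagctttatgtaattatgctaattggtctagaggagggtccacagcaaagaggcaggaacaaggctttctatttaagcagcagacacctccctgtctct
Ces1e, chr8:93229620-93229869, minus strand: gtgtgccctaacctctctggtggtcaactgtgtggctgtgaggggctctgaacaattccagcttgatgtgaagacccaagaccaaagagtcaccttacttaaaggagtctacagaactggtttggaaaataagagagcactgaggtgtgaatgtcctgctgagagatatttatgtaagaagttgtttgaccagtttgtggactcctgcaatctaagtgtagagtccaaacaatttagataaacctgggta
Ces2a, chr8:104733753-104734002, plus strand: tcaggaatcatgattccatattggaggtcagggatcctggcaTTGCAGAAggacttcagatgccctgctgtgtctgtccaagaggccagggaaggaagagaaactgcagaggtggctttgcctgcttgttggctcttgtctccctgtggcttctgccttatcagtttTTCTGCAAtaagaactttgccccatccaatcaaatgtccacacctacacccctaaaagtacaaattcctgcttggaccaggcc
Ces2e, chr8:104926010-104926259, plus strand: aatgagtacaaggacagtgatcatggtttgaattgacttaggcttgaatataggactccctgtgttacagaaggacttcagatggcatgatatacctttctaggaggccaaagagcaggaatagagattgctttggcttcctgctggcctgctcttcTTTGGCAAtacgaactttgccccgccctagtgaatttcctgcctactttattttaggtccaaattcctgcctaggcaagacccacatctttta
That motif occurred in the windows of Ces1b, Ces1c, Ces2a (2 matches) and Ces2e, and in 9.56% of all 32851 windows of this length. Ces2a and Ces2e, with opposite signs, both hold it, and Ces1e does not. TATAAA was found in the Ces1g window (12.4% of all windows), and GTTAAT for HNF1 (6.43%), CAAAGTCCA for HNF4 (0.38%), TTCNNNGAA for STAT5 (7.02%) and AGGTCA repeated after 1 base (0.03%) in none of the 7 members' windows. All motifs were searched on both strands. The windows of Ces1c and of the inner of 2 listed Ces1b starts were 94.6% identical over 223 aligned bases, and those of Ces2a and Ces2e 69.9% over 216.

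Other genes that act on esters and lipids were counted beside the family. Over all genes tested, 9.93% passed, 4.11% as higher and 5.82% as lower. Among 23 of 24 other lipid and ester hydrolase genes that could be tested, 4 were higher in responders, 1 was lower and 18 did not pass, with a median log2 fold change of 0.30. The higher ones were hepatic lipase Lipc (0.69), endothelial lipase Lipg (0.72), the formamidase Afmid (0.79) and Fitm2 (0.63), which acts in lipid droplet formation. Lipoprotein lipase Lpl was lower, at 31.7 ± 13.8 CPM in responders (SD, n = 6) against 130.03 ± 81.1 in non-responders (SD, n = 4), with a log2 fold change of -2.04 ± 0.41 (SE; adjusted p by edgeR = 0.0199). Aadac, a liver esterase of the same compartment, had 0.65 ± 0.24 and did not pass (edgeR adjusted p = 0.102).

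Of 13 genes of lipoprotein assembly and lipid droplets, Hsd17b13 was higher (log2 fold change 0.66), Tm6sf2 was lower (-1.40) and 11 did not pass. The share over all genes tested was 9.93% in either direction. Of 16 nuclear receptor and hepatocyte transcription factor genes, 2 were higher and 14 did not pass, with a median of 0.19. As higher, 4.11% of all genes tested passed. The 2 higher genes were Nr1h4, the bile acid receptor (0.42 ± 0.11, edgeR adjusted p = 0.0392), and Cebpa, a C/EBP factor of hepatocytes (0.95 ± 0.27, edgeR adjusted p = 0.047). Cebpa had 1116 CPM in responder replicate 1 and at most 389.8 CPM in any non-responder.

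Markers of other cell types were set beside the members. All 5 adipocyte markers, from a tissue that also expresses carboxylesterases, failed the filter, with summed levels of 0 to 0.202 CPM in responders and 0.0257 to 0.148 in non-responders. Enterocyte markers Cdx1 and Cdx2 were at 0 in every library, while Apoa4 and Vil1, 2 of the 3 enterocyte markers tested, were lower in responders. The summed enterocyte list was 189 to 477 CPM in responders and 563 to 3010.1 in non-responders. Most of it was Apoa4 alone, at 145 to 420 CPM in responders and 506 to 2937 in non-responders. Vil1 had at most 5.83 CPM in any library, and Sis and Lct failed the filter. Of the pancreatic acinar list Amy2a5 was at 0 and Cela2a was lower, with sums of 28.0 to 63.0 CPM in responders and 31.9 to 62.7 in non-responders. Erythroid Hbb-bt and Slc4a1, 2 of 5 erythroid markers tested, were lower in responders. Endothelial Lyve1 was lower too, while the other 6 of 7 endothelial markers tested did not pass. Of those 7, 5 had log2 fold changes above 0, and the median was 0.29. The macrophage, T cell, stellate and cholangiocyte lists had 0 genes called by edgeR, with 0, 0, 5 and 2 at an unadjusted p under 0.05, 0, 0, 1 and 1 called by DESeq2 and 0 by limma-voom. Of all 17610 genes tested by edgeR, 4803 had an unadjusted p under 0.05, and 9.93% of them all passed after adjustment. The part of these lists in the carboxylesterase values was not tested.

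The likeness of other genes to the 4 members called was measured as the root mean square distance of log2 CPM, centred over the 11 libraries, to the members' mean profile. Since the profile was taken from called genes, the fold changes of its neighbours are a description. Among 6522 candidates the nearest were the asparaginase gene Aspg (distance 0.168), the cytochrome P450 genes Cyp2j5 (0.178) and Cyp2c29 (0.199), Gas2 (0.206) and the glycosyltransferase gene Ugt3a1 (0.209). On the same measure Ces2a lay at 0.206, Ces1f at 0.249, Ces1g at 0.344 and Ces1e at 0.535. Of the members outside the profile, Ces3a was nearest at 0.616 and Ces2e (1.77) and Ces2c (1.996) were farthest.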

How the data were processed

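Per the labels' protocols, TRIzol was used to extract liver RNA, and sequencing libraries were of the Illumina TruSeq type. FastQC and the mm10 build are named in the submitters' processing notes; for the aligner, counter and annotation release the sources used here name none. Deposited tables give raw counts per gene and per exon for 11 libraries, per the file headers. RPKM values, which the authors also deposited, were not used in any result. The response label gave the groups, replicates were numbered by accession, and the no treatment library entered no main test.

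Counts were fitted with edgeR 4.0.16 in R 4.3.3 (filterByExpr with its default minimum count of 10, TMM scaling, robust quasi-likelihood F test, Benjamini-Hochberg adjustment over 17610 genes, threshold 0.05). Each SE is the log2 fold change divided by the square root of F. TMM scaling of CPM was over 11 libraries. Values per kilobase divide CPM by the gene length listed in the file. Depth was between 17876515 and 49884800 gene counts. No molecular identifiers are named, so counting error is a lower limit of the error.

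The members and lists were chosen with earlier results of these data known. Named were all carboxylesterase genes, up to 5 genes past the threshold of each other list, Gusb, Aadac, markers at 0 and the 5 genes nearest in profile with an average log2 CPM of 4 or more. Coding identity, shared runs of 50 bases and active-site stretches came from GENCODE M21 transcripts (Biopython 1.88); protein sequences were not used here. Alternatives were RLE, upper quartile and library-size scaling, no filter, a minimum count of 50, DESeq2 1.42.0, limma-voom (limma 3.58.1), the title number or hepatocyte marker mean as a covariate, exon count sums, a model with the no treatment library, and 10 fits without 1 library each. A 3′ coverage index covariate and levels by transcript length were chosen after seeing the data. The edgeR step was tested on simulated data. Figures were drawn with matplotlib 3.10.9.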

Additional observations from a re-analysis of the deposited data

Results flagged for a closer look

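Treated groups of some of the tested genes and of the 3′ coverage index, 68 in all, were searched for a library far from the others. It was judged by the gap to the nearest library over the range of the group. Genes outside that search can hold such libraries too. Chance flags about 1 in 20 groups, and 6 of 68 were flagged. Ces2e had 198.2 CPM in non-responder replicate 1, where the other 3 non-responders had 472 CPM or more. The 3′ coverage index was 1.18 in that same library, and its part in the Ces2e value was not tested. Ces1a had 13.9 CPM in responder replicate 1 and Cebpa had 1116 CPM in that library. Ces4a had 14.5 CPM in responder replicate 4, and Tm6sf2 had 34.4 CPM in responder replicate 6, each the highest of the responders and far from the next.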

How the results depend on the processing

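Of 220 refits of the 10 members, 186 kept their direction and their side of the threshold, 28 lost the call, 5 gained it and 1 reversed: Ces1b had -0.10 once the title number was a covariate (adjusted p = 0.923), and no alternative called it. The number of members higher in responders was 4. It was 1 without a filter on low counts, 0 with the title number as a covariate, 2 with the hepatocyte marker mean, 2 with the 3′ coverage index chosen after seeing the data, and 0 to 5 with each library left out. In that title number fit, the log2 fold changes of Ces1e, Ces1f, Ces1g and Ces2a were 2.58, 1.57, 1.501 and 1.57 (adjusted p from 0.433 to 0.46). Responders carry title numbers 1, 3, 9, 13, 16 and 29 and non-responders 26, 30, 32 and 37, so that number and group are in part the same. The number of members lower was 0, with 2 in DESeq2 and 0 to 1 with each library left out. Genes called numbered 1748, with 3046 in DESeq2, 1 with the title number (1857 at an unadjusted p under 0.05) and 79 to 1994 with each library left out. They numbered 1244 of 29217 tested without a filter on low counts. With the hepatocyte marker mean they numbered 1362, and with the 3′ coverage index 1685. The cause was not tested. By transcript length in place of listed length, also chosen after seeing the data, the mean level per kilobase moved by more than its SD for Ces1c and Ces1f in both groups and for Ces1d in responders. The called members had at least 6255 reads in a group, where Ces1h and Ces2f had 81 and 29 reads in non-responders. No paired analysis was possible because the replicate numbers are accession order and the labels pair no libraries.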
